A study of Mus musculus with 54 samples.

Results

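Kruppel-like factors (KLFs) are zinc-finger transcription factors that bind GC-rich boxes in promoters, and several of them are switched on within minutes by stress, by growth factors or by hormones. Klf2 and Klf4 are induced in vascular endothelium by laminar flow through the ERK5 kinase and MEF2 factors, and Klf2 also keeps naive T and B cells quiescent and sets their trafficking receptors. Klf6 is an early-response gene of tissue injury, Klf10 was found as an early gene of TGF-beta signalling, and Klf9 and Klf15 are targets of the glucocorticoid receptor, with Klf15 known in the kidney for its role in podocytes and in metabolism. Expression of 6 members of the family, Klf2, Klf4, Klf6, Klf9, Klf10 and Klf15, was followed in mouse kidney through tissue dissociation, storage and nuclei isolation. They were taken by name, with earlier results of these data known, and are 6 of the 33126 genes listed in any of the deposited tables. The share of all genes called is therefore printed beside each count of members as a description only.

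The series held 54 libraries in 18 groups of 3, each group from 3 kidneys. The first experiment used male AFAPIL.1DEL C57BL/6J mice of a single litter, 19 weeks old, and the label does not say what the AFAPIL.1DEL allele removes. Their kidneys were dissociated warm with a commercial enzyme kit or cold with a bacterial protease on ice, and each suspension was profiled fresh, after cryopreservation and after methanol fixation with the v2 chemistry of 10x Genomics, and fresh by bulk RNA-seq with rRNA depletion. The second experiment used untreated male Balb/c littermates, 18 weeks old, for cold-dissociated cells and for nuclei (washed and spun by the 3x500g protocol) with v2 chemistry, and for rRNA-depleted bulk RNA-seq of intact kidney. The third used untreated female Balb/c mice, 15 weeks old and formerly breeders, for fresh and cryopreserved cold-dissociated cells and for nuclei by the 3x500g, 1x2000g and sucrose protocols with v3 chemistry, and for poly(A) bulk RNA-seq of intact kidney and of cold suspensions. Between experiments, strain, the AFAPIL.1DEL label, sex, age, chemistry and batch cannot be told apart, nor, for cryopreserved cells, can the storage protocol. Nuclei came from frozen kidneys and cells from fresh ones.

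The 39 cell and nucleus libraries held 782 to 9308 barcodes and 983522 to 35170947 UMIs each, and the 15 bulk libraries held 2326998 to 31093949 counts. Barcodes were placed in cell gates by the number of detected markers from lists of 10 genes, and 4.66 to 36.1% of a library's barcodes fell in no gate. Levels are CPM, counts scaled to one common total over the non-mitochondrial genes, from the sum over a gate's barcodes in a library, so that a library is the replicate. Since these markers set the gates, their levels describe the gates and are no check of them. In fresh cold-dissociated C57 libraries the summed endothelial markers stood at 7235 to 11218 CPM in the endothelial gate and at 23.4 to 25.1 CPM in the proximal tubule gate, while proximal tubule markers stood at 1101 to 2440 CPM in the endothelial gate. Lymphocyte markers did not fare as well in every library: in warm-dissociated methanol-fixed replicate 3, 9 of 10 B and 9 of 10 T markers were listed at 0 and no lymphocytes were gated, and in Balb/c male cold-dissociated replicate 3, 7 B and 10 T markers were listed at 0, so its lymphocyte values rest on 2 libraries. Many of the deposited tables list genes at 0 in a whole library, which befell Klf15 in cold-dissociated cryopreserved replicates 1 and 3 and Klf10 in warm-dissociated methanol-fixed replicate 3. These 3 values were left out of the means but stayed in the tests.

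The members lie on 6 chromosomes, all as protein-coding genes (GRCm38). Klf2 (ENSMUSG00000055148.7) spans chr8:72319033-72321656 on the plus strand, Klf4 (ENSMUSG00000003032.8) chr4:55527143-55532466 on the minus strand and Klf6 (ENSMUSG00000000078.7) chr13:5861482-5870394 on the plus strand. Klf9 (ENSMUSG00000033863.2) spans chr19:23141226-23168134 on the plus strand and shares 121 bp with Mir1192 on the same strand. Klf10 (ENSMUSG00000037465.10) spans chr15:38291463-38300706 on the minus strand and Klf15 (ENSMUSG00000030087.11) chr6:90462576-90475238 on the plus strand. The 250 bases before the RefSeq start are printed here for the 3 members that rose together in warm-dissociated tissue, and for Klf9, which was not called in bulk. They are from RefSeq on GRCm38.p6, 5′ to 3′ on the gene's strand. Capitals mark a MEF2 match in Klf2 and a match to a loose AP-1 pattern in Klf9.
Klf2: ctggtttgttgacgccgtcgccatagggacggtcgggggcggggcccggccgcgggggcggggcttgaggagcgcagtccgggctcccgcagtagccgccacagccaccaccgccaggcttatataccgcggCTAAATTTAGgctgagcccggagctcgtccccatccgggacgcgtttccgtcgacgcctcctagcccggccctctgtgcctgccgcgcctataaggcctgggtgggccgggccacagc
Klf4: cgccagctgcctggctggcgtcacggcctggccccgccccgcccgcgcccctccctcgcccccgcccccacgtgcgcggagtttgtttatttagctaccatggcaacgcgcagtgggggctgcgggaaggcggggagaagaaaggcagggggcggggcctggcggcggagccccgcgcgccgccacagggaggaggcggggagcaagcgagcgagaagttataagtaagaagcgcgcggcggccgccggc
Klf6: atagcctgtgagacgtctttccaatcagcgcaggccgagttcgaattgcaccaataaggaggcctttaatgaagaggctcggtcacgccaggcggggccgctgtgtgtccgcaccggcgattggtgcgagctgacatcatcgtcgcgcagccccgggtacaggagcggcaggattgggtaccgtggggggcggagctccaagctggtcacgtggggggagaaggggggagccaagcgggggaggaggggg
Klf9: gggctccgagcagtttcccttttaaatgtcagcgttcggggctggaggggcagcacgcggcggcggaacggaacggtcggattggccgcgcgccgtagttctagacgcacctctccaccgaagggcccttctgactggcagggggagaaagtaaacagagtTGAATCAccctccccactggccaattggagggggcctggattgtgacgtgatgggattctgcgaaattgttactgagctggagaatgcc

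The Klf2 window (chr8:72318812-72319061) held a MEF2 match 118 bases before the start and 2 copies of the GC box GGGCGGGG. The Klf4 window (chr4:55532476-55532725) held 4 GC boxes, the first pair overlapping, and the Klf6 window (chr13:5861239-5861488) held none but had 4 CCAAT boxes. The Klf9 window (chr19:23140976-23141225) held TGAATCA 89 bases before the start and 3 CCAAT boxes. TGAATCA is an AP-1 match only by the loose pattern searched here, TGANTCA, which allows any base (N) at its centre. The Klf15 window (chr6:90462326-90462575) held 1 GC box and 1 CCAAT box. No AP-1 match, CRE (TGACGTCA) or CArG box lay in the Klf2, Klf4 and Klf6 windows, and no glucocorticoid response element in any of the 5. Both strands were searched. Among 32851 windows of this length, 2.92% held a MEF2 match, 6.75% an AP-1 match, 16.1% the GC box and 33.8% a CCAAT box. A CRE lay in 1.55%, a CArG box in 1.47% and the glucocorticoid response element in 0.00913%. Most windows lacked each of these motifs, so nothing is read from an absence. The 5 windows were 59.6 to 74% GC, against a median of 52.4%. These matches describe the letters only. Klf10 had no entry in the promoter table.

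In bulk RNA-seq of the C57 suspensions, Klf2, Klf4 and Klf6 were higher after warm than after cold dissociation, and Klf9, Klf10 and Klf15 were not called. Klf4, which endothelium and epithelia use to restrain growth and inflammation, stood at 11.5, 14.3 and 12.2 CPM in the cold-dissociated libraries and at 75, 58.1 and 57.9 CPM in the warm-dissociated ones, a log2 fold change of 2.32 (SE 0.13, adjusted p = 3.09e-07, edgeR quasi-likelihood test). Klf6 went from 53.8, 57.9 and 48.9 CPM to 256, 192 and 270 CPM (log2 fold change 2.14, SE 0.12, adjusted p = 2.26e-07). Klf2 went from 13.7, 14.2 and 12.2 CPM to 42.3, 36.2 and 42.1 CPM (log2 fold change 1.57, SE 0.11, adjusted p = 2.23e-06). For all 3, every warm library lay above every cold library, with no overlap. These were 3 of the 6 members, while 8.68% of all genes tested in bulk were called, and the 3 calls stood whichever library was left out. In bulk, a change in the cells present and a change in RNA per cell cannot be told apart.

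Of the other 3 members, Klf9 and Klf15 overlapped between the protocols and Klf10 did not. Klf10 stood at 31.4, 33.0 and 26.5 CPM cold and 39.6, 39 and 36.7 CPM warm, but missed the threshold (log2 fold change 0.32, SE 0.10, adjusted p = 0.0576). Klf10 was called by edgeR's exact test (adjusted p = 0.0434) and without the filter on low counts (0.0346), and not by DESeq2 (0.172) or with RLE size factors (0.0537). Klf9 stood at 183, 165 and 171 CPM cold and 184, 153 and 167 CPM warm (log2 fold change -0.06, SE 0.08, adjusted p = 0.72). Klf15 stood at 120, 101 and 111 CPM cold and 123, 135 and 101 CPM warm (log2 fold change 0.09, SE 0.10, adjusted p = 0.688). Beside these glucocorticoid-responsive members, Per1, Sgk1 and Tsc22d3, 3 of the 6 genes on the list of the glucocorticoid receptor and its targets, rose by 1.95, 0.42 and 0.33 on the log2 scale. Of the 14 other KLF and SP factors that passed the filter, Klf3 alone was called (-0.28, adjusted p = 0.0407). None of the 6 genes of the ERK5-MEF2 list and none of the 6 endothelial KLF targets was called by edgeR's quasi-likelihood test or by DESeq2. Of these 12 only Mef2c had an unadjusted p under 0.05 in the first of these tests (log2 fold change -0.39, SE 0.12, adjusted p = 0.0788), and Mef2c was called by edgeR's exact test (adjusted p = 0.0477) and without the filter on low counts (0.0173). The median log2 fold change was 0.95 over the members, against -0.01 over all genes. Since the members were chosen with earlier results known, nothing is read from this difference.

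**Figure D1:**
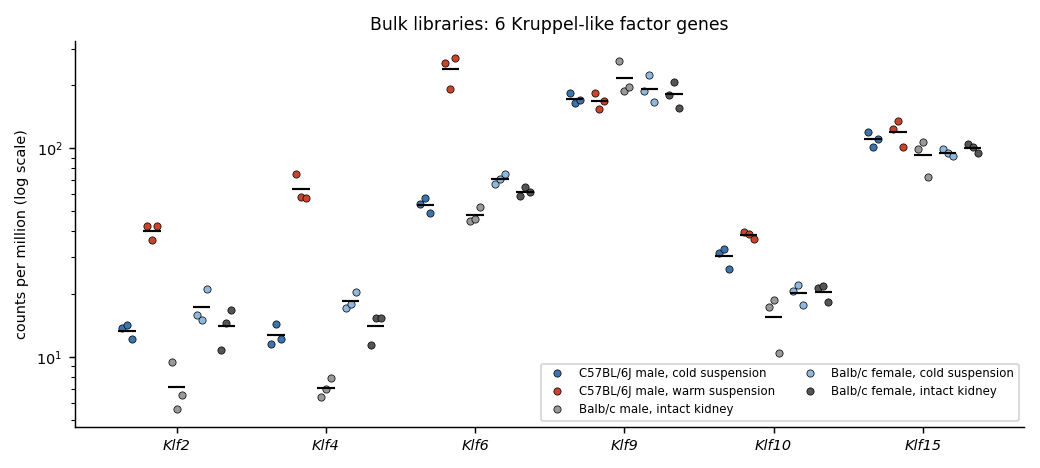
Levels of the 6 Kruppel-like factors in bulk RNA-seq, as CPM on a log axis, for the 5 bulk groups. Each point is a library and each bar the mean of 3. In C57 suspensions Klf2, Klf4 and Klf6 lie higher in all 3 warm-dissociated libraries than in the cold-dissociated ones, while Klf9 and Klf15 overlap.

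Per transcript length, the order of the members changed with the protocol. In cold C57 suspensions Klf15 (162 ± 15.2 TPM, a level scaled for transcript length and to a common total, SD, n = 3) and Klf9 (147 ± 9.53) led, followed by Klf6 (49.8 ± 4.31), Klf10 (29.6 ± 3.45), Klf2 (29.5 ± 2.40) and Klf4 (17.0 ± 1.85). Klf15 and Klf9, and likewise Klf10 and Klf2, lay within their spread of each other. In warm suspensions Klf6 came first at 223 ± 38.9 TPM, before Klf15 at 175 ± 25, Klf9 at 143 ± 13.3, Klf2 at 89.1 ± 7.87, Klf4 at 85.4 ± 13.3 and Klf10 at 37.6 ± 1.48. The warm libraries overlapped between Klf6 and Klf15, between Klf15 and Klf9, and between Klf2 and Klf4. Intact kidneys of Balb/c males and females gave Klf9 (180 ± 40.9 and 142 ± 21.3 TPM) and Klf15 (133 ± 22.5 and 136 ± 7.60 TPM) as the 2 highest members again, and Klf4 as the lowest (9.34 ± 1.16 and 17.3 ± 2.78 TPM). The same pair led in intact tissue and in cold suspensions, and its members lay within their spread of each other.

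Cold dissociation itself was set against intact tissue in Balb/c females, in which the same poly(A) protocol was used for both. No member was called between intact kidney and cold suspension, while 20% of all genes tested were. Klf4 stood at 11.4, 15.3 and 15.3 CPM in intact kidney and at 17.1, 17.9 and 20.5 CPM in suspension (log2 fold change of intact over suspension -0.36, SE 0.12, adjusted p = 0.0648). All 3 suspensions lay above all intact kidneys, and Klf4 passed the threshold with DESeq2, with edgeR's exact test and without the filter on low counts, each giving an adjusted p between 0.0373 and 0.0448. Klf6 also did not overlap, at 58.7, 65.0 and 61.9 CPM intact and 67.3, 70.9 and 75 CPM in suspension, without a call (log2 fold change -0.15, adjusted p = 0.099). These were the 2 members with an unadjusted p under the threshold. Klf2 overlapped between the groups (log2 fold change -0.27, adjusted p = 0.303), as did Klf9 (-0.04), Klf10 (0.06) and Klf15 (0.12).

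Which cells carried each member was read from the gates of fresh cold-dissociated C57 libraries. Klf2 was high in endothelial (1714 ± 291 CPM, SD, n = 3) and B (1640 ± 135 CPM) gates, which did not differ beyond their spread, then in T (628 ± 208), NK (390) and myeloid (199 ± 15) gates, and was at 3.95 to 12.7 CPM in the podocyte gate and the 5 tubule gates. Klf4 was highest in the endothelial gate at 189 ± 42.4 CPM, followed by the myeloid gate at 39.2 ± 15.2 CPM and the B gate at 15.5 CPM. Klf6 was spread more evenly, from 114 ± 51 CPM in endothelial and 112 ± 21.8 CPM in myeloid cells to 18.6 CPM in proximal tubule, with neighbours in that order overlapping. Klf9 ranged from 142 ± 32.4 CPM in endothelial and 98.4 ± 21.3 CPM in thick ascending limb gates, which overlapped, down to 2.56 CPM in B cells. Klf10 was highest in endothelial cells at 125 ± 13.9 CPM, with the next gate, principal cells, at 39.2 CPM. Klf15 was the tubule member, at 41.3 ± 6.79 CPM in proximal tubule, 24.3 ± 12.1 CPM in thick ascending limb and 4.41 CPM in endothelial cells. The highest gate mean under cold dissociation lay in endothelium for 5 of the 6 members, all but Klf15. For Klf2, Klf6 and Klf9 it did not stand apart from the next gate. The same share over all genes was not taken, so nothing is read from this count. These levels are a description, with no test between gates.

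Over the 21 gate means of fresh cold- and warm-dissociated libraries that held enough barcodes, the genes whose log2 levels ran most like a member's were named by Pearson r, among 7352 genes. The points share libraries and protocols, so r is given without a p. For Klf2 these were Srgn (0.939), Il2rg (0.924) and Sipa1 (0.904), genes of leukocytes in the main. For Klf6 they were the early-response genes Junb (0.893), Ppp1r15a (0.887) and Ier2 (0.869), and for Klf4 Grasp (0.761), Ier2 (0.758) and Impact (0.736). For Klf9 they were Nckap1 (0.900), Agtrap (0.893) and Msrb2 (0.882), for Klf15 Tmem53 (0.927), Coq9 (0.900) and Phyh (0.894), and for Klf10 Myl12b (0.746), Trim30a (0.737) and Ly6e (0.734). Among the members themselves, Klf9 with Klf15 (0.707) and Klf2 with Klf4 (0.693) were the most alike, and Klf2 with Klf15 (-0.425) the least.

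**Figure D2:**
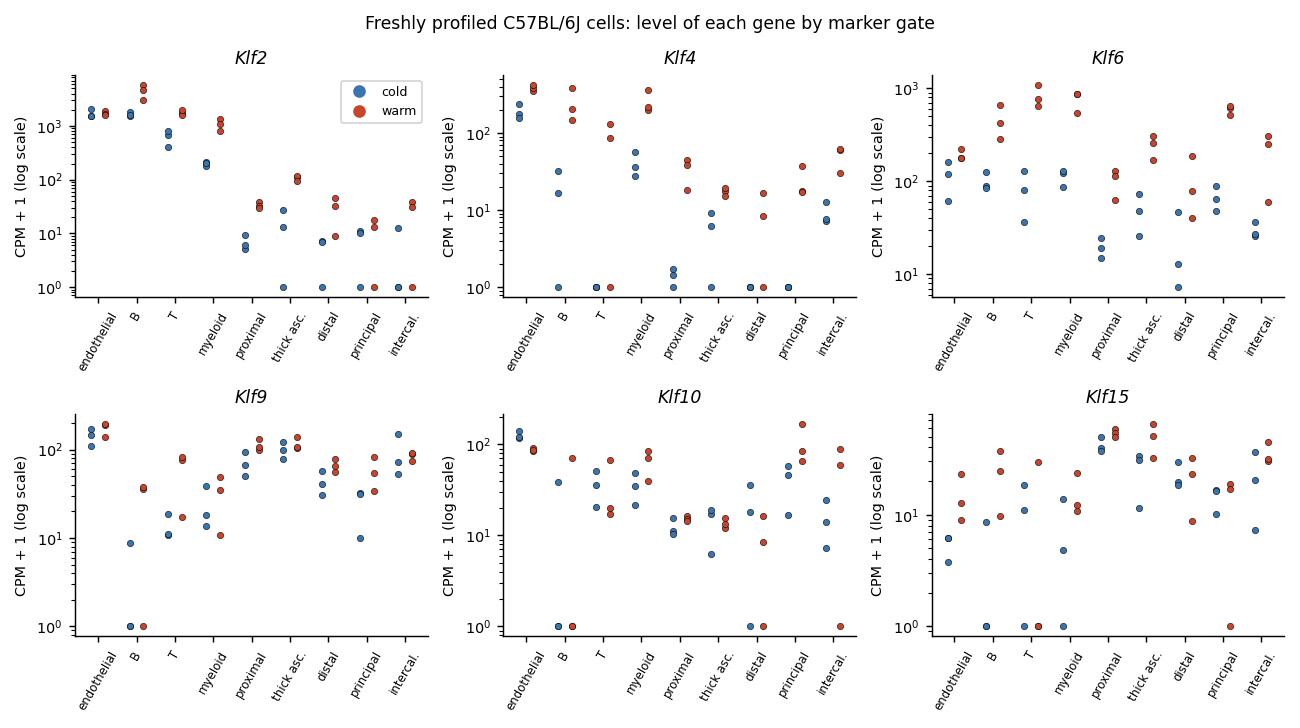
Levels of the 6 members by gate in fresh C57 libraries, as CPM + 1 on a log axis, with cold-dissociated libraries in blue and warm-dissociated libraries in red, 1 point per library. Klf2 in endothelial cells lies in the same place in both protocols, while in B, T, myeloid, proximal tubule and thick ascending limb gates all red points lie above the blue.

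Warm against cold dissociation was then tested inside each gate of the fresh C57 libraries. Of 54 member and gate pairs, 23 passed the filter on low counts and 16 were called, all higher after warm dissociation, while 4.38% of all gene and gate pairs tested were called. A pair that passes the filter only through its higher group had to differ, so these counts are an account of the pairs and no support in themselves. The call of such a pair is no support either, here and in the comparisons below. In 17 of the 23 pairs every warm library lay above every cold library, in 1 below, and in 5 the libraries overlapped. The same shares over all genes were not taken, so nothing is read from these counts of overlap. No member passed the filter in the distal convoluted and connecting tubule gate or in the intercalated gate. The pooled lymphocyte gate holds the barcodes of the B and T gates, so in every count of pairs its pairs are not separate from theirs. The fresh cold libraries also served as controls for storage and for the comparison with Balb/c males, so those comparisons share samples.

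In endothelial cells, Klf4 rose and Klf2, the member with the most UMIs there, was not called. Klf2 stood at 1535, 2050 and 1558 CPM cold and 1934, 1642 and 1610 CPM warm, with full overlap (log2 fold change 0.03, SE 0.16, adjusted p = 0.948, edgeR). Klf4 rose from 173, 237 and 157 CPM to 349, 386 and 423 CPM (log2 fold change 1.04, SE 0.18, adjusted p = 0.00245), so that its lowest warm library lay above its highest cold one. The myeloid markers in the gate were lower in the warm libraries (47.4 to 71.5 CPM) than in the cold ones (79.3 to 170 CPM), and the part of myeloid RNA was not tested. Klf6 stood at 162, 120 and 60.8 CPM cold and 224, 179 and 178 CPM warm, without overlap but without a call (0.85, SE 0.25, adjusted p = 0.0912). Klf10 was the member that lay lower, at 115, 141 and 119 CPM cold against 89.5, 84.7 and 85.4 CPM warm, and it too was not called (-0.53, SE 0.20, adjusted p = 0.221). Klf9 overlapped between protocols (0.27, adjusted p = 0.591). Of the endothelial KLF targets, 5 of 6 passed the filter and Vcam1, an adhesion molecule of inflamed endothelium, was called (1.72, adjusted p = 0.000191).

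In lymphocytes Klf2 rose together with Klf4 and Klf6. B cells carried Klf2 at 1794, 1549 and 1575 CPM cold and at 5879, 3106 and 4745 CPM warm (log2 fold change 1.46, SE 0.22, adjusted p = 0.00259), and T cells at 669, 812 and 402 CPM cold and 1770, 1573 and 1983 CPM warm (1.58, SE 0.25, adjusted p = 0.01). Neither gate overlapped between protocols. In the B gate the endothelial markers stood at 111 to 210 CPM cold and 48.3 to 81.1 CPM warm and the B markers at 7316 to 9695 and 5515 to 6507 CPM, both without overlap, and their part was not tested. Klf6 in T cells went from 35.2, 127 and 80.4 CPM to 639, 777 and 1098 CPM (3.33, SE 0.39, adjusted p = 0.00251), and in B cells from 87.8, 84.3 and 126 CPM to 428, 282 and 657 CPM (2.08, SE 0.40, adjusted p = 0.00931). Klf4, close to absent in cold B cells at 0, 30.7 and 15.8 CPM, stood at 381, 202 and 146 CPM in warm ones (3.61, SE 0.63, adjusted p = 0.00479). That pair passed the filter only through its warm libraries and so had to differ, and its call is no support. It was no longer fitted with the strict gate. In T cells Klf4 had 0 counts in the cold libraries and 17 in the warm ones, which puts the warm level at least 6.44-fold higher if the cold libraries together are given 3 counts, and was not tested. Klf2 in T cells was no longer called without warm replicate 3 (adjusted p = 0.0657), nor Klf6 in B cells without cold replicate 1 (0.0514) or cold replicate 2 (0.063). In the pooled lymphocyte gate Klf2 (1.44), Klf6 (3.06) and Klf4 (3.18) were called, the last not without cold replicate 2 (adjusted p = 0.0935). Of the 6 lymphocyte KLF2 targets, all of which passed the filter there, Ccr7 alone was called (1.74, adjusted p = 0.0113).

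The share of cells with a UMI is given beside the summed levels as a description. After thinning each barcode to 500 UMIs, Klf6 was seen in 2.90% of cold-dissociated T cells (10.5% of 209 before thinning) and in 33.3% of warm-dissociated ones (58.8% of 119), with library ranges of 0 to 4.08% and 28.3 to 44.4%. Thinning left out 2 barcodes in each group. Klf2 was seen in 29.6% and 48.1% of thinned lymphocytes (48.3% of 528 and 65.5% of 267 before), 8 and 3 barcodes being too shallow. In the proximal tubule gate, which had the lowest Klf6 level of all gates under cold dissociation, thinned Klf6 shares were 0.66% and 1.79% (2.38% of 5757 and 6.78% of 6564 before) and thinned Klf2 shares 0.179% and 0.614%. Free RNA was not measured, and its part in these shares was not tested. Median depth per library was 1141 to 2476 UMIs in cold and 1821 to 2073 in warm T cells, and 1409 to 1950.5 and 1659 to 1874 in proximal tubule. The warm T cell libraries lay above all cold ones and above the tubule, whereas under cold dissociation the T cell share exceeded that of the tubule only in the pooled value, since a cold T cell library stood at 0.

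In proximal tubule, the most abundant gate with 5757 cold and 6564 warm barcodes, Klf4 had the largest fitted log2 fold change of any member in this comparison. Its 3 counts in all cold libraries (0.426, 0 and 0.729 CPM) became 459 counts in the warm ones (44.0, 37.5 and 17.3 CPM), a ratio of pooled rates of 90.7 with an exact 95% interval of 30.8 to 441 that covers counting error only (fitted log2 fold change 6.40, SE 0.59, adjusted p = 0.000107). The pair passed the filter only through its warm libraries and so had to differ, and its call is no support. The size of the fold rests on those 3 cold counts. Klf2 went from 8.52, 4.14 and 5.10 CPM to 36.6, 32.0 and 28.4 CPM (2.54, SE 0.24, adjusted p = 0.000131). Klf6 went from 14.1, 18 and 23.7 CPM to 129, 112 and 61.3 CPM (2.50, SE 0.27, adjusted p = 0.000363). None of the 3 overlapped. Beside these values, the summed endothelial markers in the gate were lower after warm dissociation (13.5 to 16.7 CPM) than after cold (23.4 to 25.1 CPM), as were the myeloid markers (22.9 to 36.3 against 31.1 to 48.0 CPM, overlapping), while the B markers stood at 1.97 to 13.1 CPM warm and 5.00 to 6.43 CPM cold. The part of RNA from endothelial, myeloid or B cells in these Klf values was not tested. Klf9 stood at 93.8, 66.6 and 49.5 CPM cold and 131, 98.0 and 105 CPM warm (0.73, SE 0.20, adjusted p = 0.0436), a call that was lost without warm replicate 1, 2 or 3 or cold replicate 2 or 3, with adjusted p up to 0.169. Klf15, at 49.0, 38.3 and 36.4 CPM cold and 57.3, 52.9 and 49.0 CPM warm, was not called (0.43, SE 0.15, adjusted p = 0.0896), nor was Klf10 (0.39, adjusted p = 0.255). Sgk1 (1.65) and Tsc22d3 (0.95), glucocorticoid targets, rose in this gate, 2 of the 4 genes of that list that passed the filter.

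Klf6 was also higher in thick ascending limb and principal cells, and Klf2 in thick ascending limb. In thick ascending limb Klf2 went from 0, 26.1 and 11.9 CPM to 109, 118 and 94.4 CPM (log2 fold change 2.81, SE 0.47, adjusted p = 0.00253) and Klf6 from 24.5, 46.9 and 71.4 CPM to 257, 170 and 308 CPM (2.23, SE 0.33, adjusted p = 0.000917). The endothelial markers in that gate stood at 30.2 to 55.9 CPM cold and at 68.1 to 101 CPM warm, without overlap, and their part in these results was not tested. The Klf2 pair passed the filter only through its warm libraries and so had to differ, and its call is no support. It was no longer fitted with the strict gate. In principal cells of the collecting duct Klf6 went from 47.1, 87.4 and 63.4 CPM to 617, 515 and 644 CPM (3.11, SE 0.28, adjusted p = 1.02e-07). The B markers summed to 6.40 to 148 CPM in the cold principal gate and to 0 in the warm one, and their part in this result was not tested. Klf9 in thick ascending limb overlapped between protocols (0.14, adjusted p = 0.863).

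The difference of the warm effect between gates was tested directly, in a single fit with an interaction term. Of 18 member and gate-pair combinations 17 passed the filter and 5 were called, all with the smaller log2 fold change in endothelium, while 0.525% of all genes and gate pairs tested were called. Against proximal tubule, the endothelial effect was smaller by a log2 difference of -2.54 for Klf2 (adjusted p = 3.66e-08) and -1.65 for Klf6 (adjusted p = 0.00198). The fitted difference for Klf4 was -5.25 (SE 0.57, adjusted p = 3.67e-08), but its size rests on the 3 counts of the cold proximal tubule libraries and is given as a fitted value only. Against T cells it was smaller for Klf2 (-1.56, adjusted p = 0.00884) and for Klf6 (-2.41, adjusted p = 0.0406), the last lost without any of the 3 cold replicates or without warm replicate 3, with adjusted p up to 0.203. Between T cells and proximal tubule no member was called. Of these 3 gates, endothelium had the highest mean levels of Klf2, Klf4 and Klf6 under cold dissociation. The differences are on the log2 scale only, and in CPM Klf4 rose by more in endothelium than in proximal tubule. Each library enters both gates, and the fit had a term for each library.

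**Figure D3:**
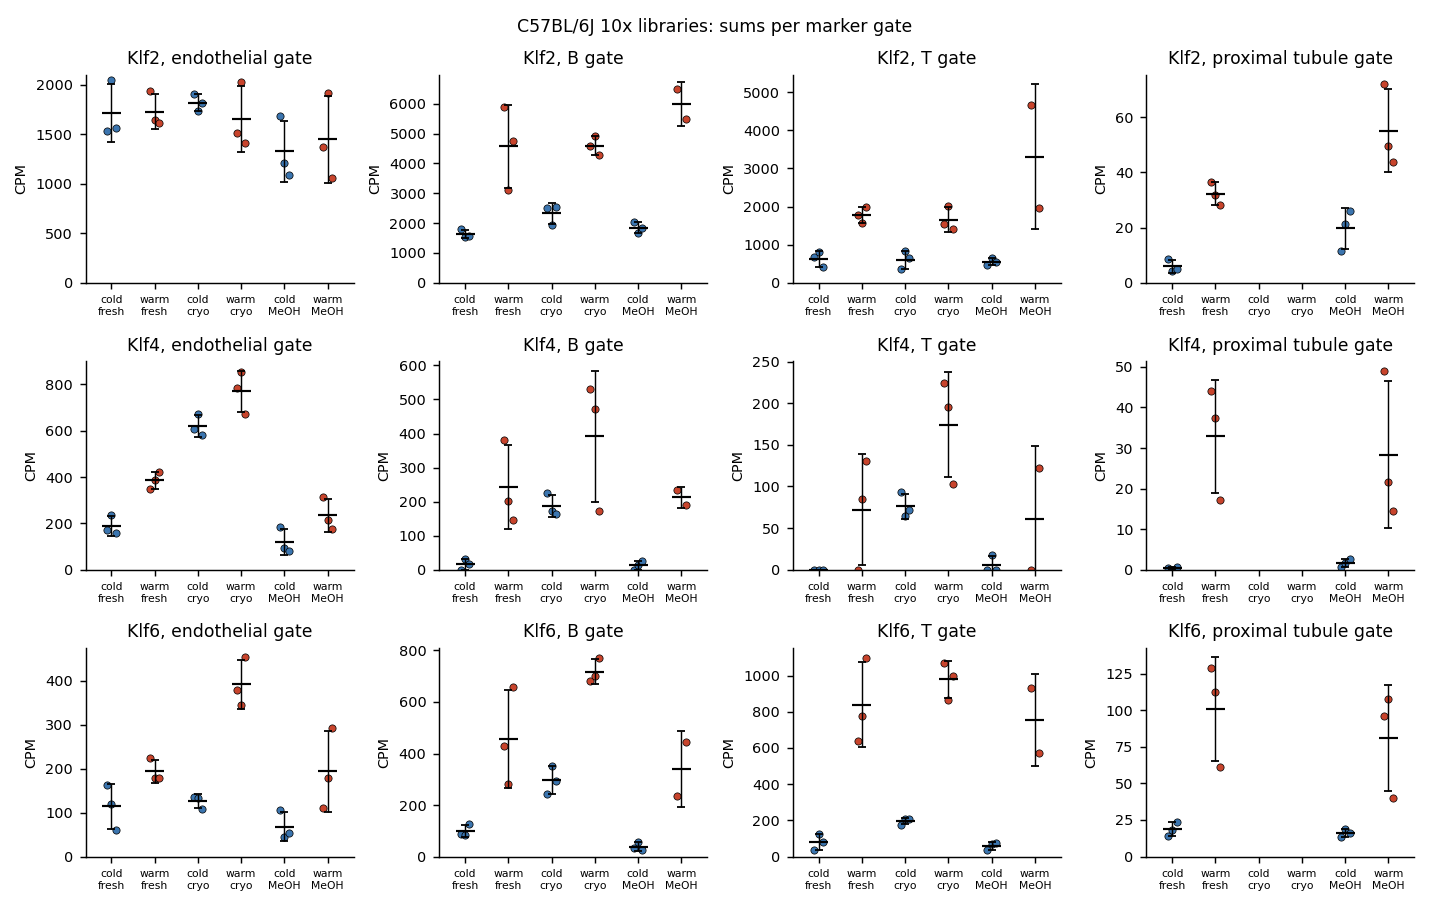
Klf2, Klf4 and Klf6 in endothelial, B, T and proximal tubule gates of the 6 C57 groups, as CPM on a linear axis from 0. Points are libraries whose gate held at least 10 barcodes, lines are means and bars SD. Endothelial Klf2 lies between 1056 and 2050 CPM over the 18 libraries, endothelial Klf4 is highest in cryopreserved cells, and Klf6 in B and T cells is high in every warm-dissociated group.

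Cryopreservation was the next protocol to touch the family. In cold-dissociated C57 cells 13 of 48 pairs passed the filter and 7 were called, all higher after cryopreservation, while 8.67% of all gene and gate pairs tested were called. Klf2, Klf4 and Klf6 were each counted in the B gate and again in the lymphocyte gate that holds it. Libraries did not overlap in 8 of the 13 pairs, all with the cryopreserved libraries above. That share over all genes was not taken either, and nothing is read from it. Endothelial Klf4 stood at 607, 674 and 583 CPM after storage, against 173, 237 and 157 CPM fresh (log2 fold change 1.76, SE 0.17, adjusted p = 2.19e-06), with no overlap. Markers of other cells moved with it in that gate, without overlap, the myeloid sum from 79.3 to 170 CPM fresh to 222 to 936 CPM stored, the T sum from 0 to 15.9 CPM to 25.6 to 99.1 CPM, and the proximal tubule sum down to 31.3 to 38.6 CPM. In the strict gate, which leaves out barcodes with 3 or more markers of another gate, the log2 fold change was 1.78. Endothelial Klf2, at 1907, 1732 and 1812 CPM, was again not called (0.14, adjusted p = 0.7), nor was Klf6 (0.28, adjusted p = 0.617). With fresh and stored aliquots of a suspension paired, Klf9 (0.52, adjusted p = 0.0237) and Klf10 (0.51, adjusted p = 0.0374) were called in endothelium as well, against adjusted p of 0.116 and 0.16 without pairing. Edn1, which encodes the vasoconstrictor endothelin and which KLF2 represses, rose in the same gate (1.50, adjusted p = 0.00223), as the 1 gene called of the 5 endothelial KLF targets that passed the filter. The proximal tubule gate was not tested after cryopreservation of C57 cells, since it held 8 barcodes in all after cold and 5 after warm dissociation.

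Lymphocytes from cold-dissociated tissue also carried more of Klf4 and Klf6 after cryopreservation. In B cells Klf4 stood at 225, 172 and 164 CPM (log2 fold change 3.34, SE 0.51, adjusted p = 5.32e-05) and Klf6 at 241, 350 and 295 CPM (1.69, SE 0.32, adjusted p = 0.000547), each library above all fresh ones. The Klf4 pair passed the filter only through its cryopreserved libraries and so had to differ, and its call is no support. Klf4 in T cells had 24 counts against 0, at least 6.38-fold higher on the same basis. Klf6 in T cells stood at 175, 206 and 205 CPM and missed the threshold (1.29, adjusted p = 0.0517), which it passed with pairing (1.34, adjusted p = 0.0252). Klf2 in B cells stood at 2521, 1929 and 2544 CPM (0.57, adjusted p = 0.0185), a call lost in the strict gate (adjusted p = 0.0836), without fresh replicate 2 (0.0708) and without cryopreserved replicate 3 (0.115). Klf2 in T cells overlapped between fresh and stored (0.14, adjusted p = 0.864). In the pooled lymphocyte gate Klf4 (3.44) and Klf6 (1.74) were called, and Klf2 (0.68, adjusted p = 0.0247) was called but lost in the strict gate and without fresh replicates 2 or 3 or cryopreserved replicates 2 or 3.

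In warm-dissociated C57 cells, Klf4, Klf6 and Klf10 were higher in endothelium after cryopreservation. Of 48 pairs 27 passed the filter and 11 were called, all higher, while 8.4% of all pairs tested were called, and with the strict gate 4 were called. Endothelial Klf4 went from 349, 386 and 423 CPM to 784, 852 and 675 CPM (log2 fold change 1.13, SE 0.14, adjusted p = 0.000148, and 1.02 in the strict gate), beside myeloid markers at 47.4 to 71.5 CPM fresh and 149 to 320 CPM stored. Endothelial Klf6 went from 224, 179 and 178 CPM to 379, 345 and 453 CPM (1.16, SE 0.16, adjusted p = 0.000362), and Klf10 from 89.5, 84.7 and 85.4 CPM to 151, 270 and 189 CPM (1.39, SE 0.22, adjusted p = 0.00087). None of the 3 overlapped, and Klf2 was once more without a call (0.07, adjusted p = 0.806). The difference of the cryopreservation effect between warm and cold dissociation was called for 0 of 30 pairs that passed the filter by edgeR, 9 having an unadjusted p under the threshold, while 0.326% of all pairs tested were called. Without warm fresh replicate 2 or warm cryopreserved replicate 1 the count was 1, in the strict gate 3, and with the pairing 0. So a larger effect of cryopreservation after either dissociation was not shown.

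Klf10 was the member that changed in most gates of warm-dissociated cryopreserved cells. Its mean went from 31.8 to 139 CPM in lymphocytes (log2 fold change 2.05, adjusted p = 0.0168), from 12.5 to 64.1 CPM in thick ascending limb (2.38, adjusted p = 0.00785), from 105 to 352 CPM in principal cells (1.89, adjusted p = 0.00498) and from 48.8 to 193 CPM in intercalated cells (1.90, adjusted p = 0.0302). Each of these calls was lost under some alternative. With DESeq2 the intercalated call was lost (adjusted p = 0.0834), the lymphocyte and thick ascending limb pairs were given no adjusted p, and the count over all gates was 8. The lymphocyte call was lost in the strict gate (adjusted p = 0.0531) and without any cryopreserved replicate, the thick ascending limb call without cryopreserved replicate 3 (0.113), the principal call without fresh replicate 2 (0.0534) or cryopreserved replicate 3 (0.0705), and the intercalated call without any of the 6 libraries and with pairing (2.05, adjusted p = 0.0547). In the strict gate the thick ascending limb, principal and intercalated pairs of Klf10 were no longer fitted. The thick ascending limb pair was also not fitted when a fresh replicate, or the genes listed at 0 in a whole library, were left out. Without cryopreserved replicate 3 the count over all gates fell from 11 to 7. In intercalated cells Klf6 went from 58.4, 250 and 304 CPM to 1297, 1097 and 1180 CPM (2.55, SE 0.30, adjusted p = 0.000436), and Klf2 and Klf4 rose as well (2.76 and 2.97). In principal cells Klf4 rose from a mean of 22.9 to 196 CPM (2.85, adjusted p = 0.00431), while Klf6, already at 515 to 644 CPM, was not called (0.68, adjusted p = 0.0682).

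The Balb/c female experiment, with another strain, sex, chemistry and batch, gave a second set of cryopreserved cold-dissociated cells. Its cells were stored for a shorter time and spun faster than those of the C57 experiment, and the part of these changes was not tested. Of 48 pairs 25 passed the filter and 5 were called, 4 higher and 1 lower, while 7.95% of all pairs tested were called. Endothelial Klf4 rose again, from 229, 272 and 264 CPM to 403, 538 and 482 CPM (log2 fold change 0.85, SE 0.14, adjusted p = 0.00125), without overlap. Endothelial Klf2 went from 1124, 1217 and 1179 CPM to 1418, 2155 and 1957 CPM (0.61, SE 0.15, adjusted p = 0.0209), a call lost in the strict gate (0.123) and without any library but cryopreserved replicate 1. In proximal tubule, which kept 306 barcodes, Klf6 (0.78, adjusted p = 0.0178) and Klf10 (1.48, adjusted p = 0.0206) were higher and Klf9 lower (-0.59, adjusted p = 0.0169). Each of these was lost on leaving out at least 1 library, and the count of calls fell to 2 or 3 without any fresh replicate or without cryopreserved replicate 2 or 3, Klf10 no longer passing the filter when a fresh replicate was left out.

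After methanol fixation endothelial Klf4 and Klf10 of cold-dissociated cells were lower, and Klf2 in proximal tubule was higher. In cold-dissociated cells 15 of 54 pairs passed the filter, and 1 was called higher and 4 lower, while 24.3% of all pairs tested were called, and nothing is read from the members' count. Endothelial Klf4 stood at 183, 93.4 and 79.7 CPM after fixation, overlapping the fresh range of 157 to 237 CPM (log2 fold change -0.84, adjusted p = 0.0154), and endothelial Klf10 at 57.9, 71.2 and 76.4 CPM, below all fresh libraries (-0.78, adjusted p = 0.017). Endothelial Klf6 was not called (-0.87, adjusted p = 0.0554) but was with fresh and fixed aliquots paired (-0.79, adjusted p = 0.0466), with zero-listed genes left out (0.0438), without the filter on low counts (0.0115) and without fresh replicate 3 (0.00906) or fixed replicate 1 (0.0257). Klf9 in proximal tubule was likewise called with pairing (-0.36, adjusted p = 0.036) and without fresh replicate 3 (0.0401), against 0.191 otherwise. Klf10 in proximal tubule (-1.05, adjusted p = 0.0346) and Klf9 in thick ascending limb (-1.06, adjusted p = 0.0329) were also lower. All 4 lower calls were lost with DESeq2 and on leaving out some library, endothelial Klf10 also in the strict gate (-0.44, adjusted p = 0.289) and Klf9 in thick ascending limb without the filter on low counts (-0.89, adjusted p = 0.232), and the count fell to 1 without fresh replicate 2 or fixed replicate 2 and to 3 without fixed replicate 3.

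Klf2 in proximal tubule was the exception and rose after fixation, from 8.52, 4.14 and 5.10 CPM to 11.5, 21.4 and 26.2 CPM in cold-dissociated cells (log2 fold change 1.89, SE 0.33, adjusted p = 0.00191). Markers of other cells moved with it in that gate. Endothelial markers summed to 46.9 to 75 CPM after fixation against 23.4 to 25.1 CPM fresh, B markers to 21.6 to 82.5 CPM against 5.00 to 6.43 CPM, and myeloid markers to 134 to 145 CPM against 31.1 to 48.0 CPM, and their part in the result was not tested. In warm-dissociated cells 21 of 42 pairs passed the filter and 3 were called, while 10.6% of all pairs tested were. Klf2 in proximal tubule was higher (0.83, adjusted p = 0.0137), with endothelial markers at 35.2 to 48.1 CPM against 13.5 to 16.7 CPM fresh, and was lost without fresh replicate 3 (0.0672) or fixed replicate 1 (0.0806). Klf9 in proximal tubule was lower (-0.78, adjusted p = 0.0101). Klf6 in thick ascending limb was lower (-0.96, adjusted p = 0.0455). This call was lost with DESeq2 (-0.99, adjusted p = 0.149), with pairing (-0.89, adjusted p = 0.0787), in the strict gate and without 5 of the 6 libraries, all but fresh replicate 2. The count fell from 3 to 1 without fresh replicate 3.

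**Figure D4:**
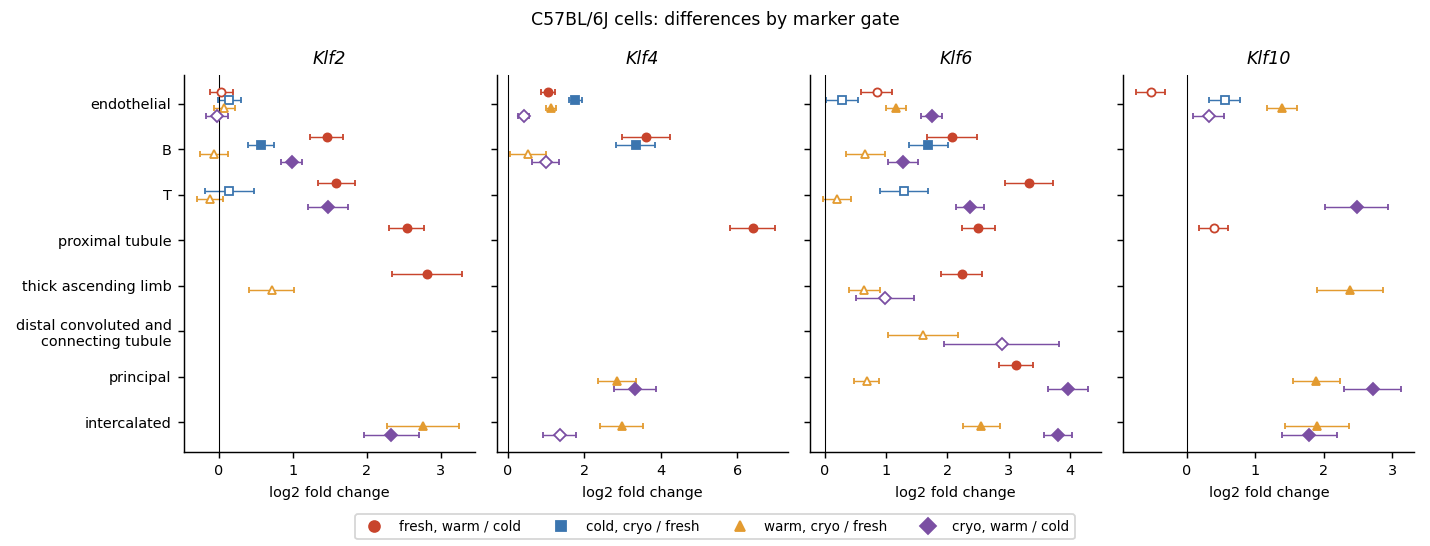
Log2 fold changes with SE for Klf2, Klf4, Klf6 and Klf10 by gate, for warm against cold dissociation of fresh and of cryopreserved C57 cells and for cryopreservation after either dissociation. Filled points have an adjusted p under 0.05. Fresh warm-dissociated cells show filled points above 0 for Klf2 in B and T cells but not in endothelium, and both cryopreservation comparisons show filled points above 0 for Klf4 in endothelium.

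The warm effect was also measured in stored cells. In cryopreserved cells 25 of 48 pairs passed the filter and 15 were called, all higher in warm-dissociated cells, while 7.87% of all pairs tested were called. Endothelial Klf6 went from a mean of 126 ± 15.9 CPM in cold-dissociated to 392 ± 55.4 CPM in warm-dissociated libraries (log2 fold change 1.74, SE 0.17, adjusted p = 5.54e-06), while endothelial Klf4 was no longer called (0.42, adjusted p = 0.0804) and Klf2 was not called (-0.03). In T cells Klf2 (1.47), Klf6 (2.37) and Klf10 (2.48) were called. Collecting duct cells had the largest Klf6 differences, from 62.2 ± 45.7 to 864 ± 135 CPM in principal cells (3.97, adjusted p = 4.36e-07) and from 89.1 ± 18.9 to 1191 ± 101 CPM in intercalated cells (3.80, adjusted p = 1.98e-07). The principal gate carried 357 to 678 CPM of B markers in cold-dissociated libraries and 0 to 19 CPM in warm-dissociated ones, and their part was not tested. Blocking on the kidney number added Klf4 in intercalated cells (1.39, adjusted p = 0.0234).

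In methanol-fixed cells 15 of 42 pairs passed the filter and 8 were called, all higher in warm-dissociated cells, while 2.84% of all pairs tested were called. In proximal tubule Klf4 (3.94, adjusted p = 0.00152), Klf6 (2.44, adjusted p = 0.00023) and Klf2 (1.43, adjusted p = 0.00707) were called, the last lost without cold-dissociated replicate 2 (0.0659). DESeq2 gave no adjusted p for Klf4 there, and nothing is read from its call. In lymphocytes, with 2 warm-dissociated libraries, Klf2 (1.95, adjusted p = 7.5e-05) and Klf6 (3.35, adjusted p = 7.5e-05) were called. T cell Klf6 (3.31, adjusted p = 0.0132) was lost without warm-dissociated replicate 1 (0.19), when a single warm-dissociated library was left and was assumed to vary like the cold-dissociated ones. In endothelium no member was called, with Klf4 at 1.18 (adjusted p = 0.193) and Klf6 at 1.62 (adjusted p = 0.109).

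Nuclei held far less endothelial Klf2 and Klf4 than cells did. Reads in introns were counted for nuclei but not for cells, and the part of this in the differences was not tested. The medians of all genes also moved between nuclei and cells, by 0.30 to 0.82 in log2 over the gates of the males and by 0.0864 to 0.300 in the females, and the fold changes stand beside those shifts. In Balb/c males 19 of 36 pairs passed the filter, 2 were called higher in 3x500g nuclei and 7 lower, while 73.8% of all pairs tested were called. In females 25 passed and 13 were called, all with a negative fitted log2 fold change, while 81.1% of all pairs were called. Most genes were called in these comparisons, so nothing is read from the members' counts. The calls lower in males were Klf2, Klf4 and Klf6 in endothelium, Klf2 and Klf6 in proximal tubule, and Klf6 in thick ascending limb and principal cells. Without cell replicate 2, Klf2 in proximal tubule (adjusted p = 0.0773) and Klf6 in principal cells (0.0581) were lost, and Klf2 in proximal tubule no longer passed the filter when a nucleus replicate was left out. In females the called pairs were Klf2, Klf4, Klf6 and Klf10 in endothelium, Klf2, Klf6 and Klf15 in proximal tubule, Klf6 and Klf15 in thick ascending limb and in distal convoluted and connecting tubule, and Klf6 and Klf10 in principal cells.

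Endothelial Klf2 stood at 2001, 1881 and 1570 CPM in male cells and at 110, 81.3 and 52.5 CPM in male nuclei (log2 fold change -4.24, SE 0.40, adjusted p = 3.62e-13). In females it stood at 1124, 1217 and 1179 CPM in cells and 91.3, 54.5 and 59.9 CPM in nuclei (-4.38, SE 0.18, adjusted p = 9.85e-12). Endothelial Klf4 went from 70.4, 119 and 152 CPM to 8.14, 13 and 9.85 CPM in males (-3.13, adjusted p = 1.01e-06) and from 229, 272 and 264 CPM to 15.3, 11.4 and 7.58 CPM in females (-4.77, SE 0.18, adjusted p = 3.99e-12). All nuclei lay below all cells for both genes. The endothelial gate of nuclei carried more proximal tubule markers, 7739 to 9412 CPM against 1458 to 2026 CPM in male cells and 3903 to 4566 CPM against 1435 to 2058 CPM in female cells, and their part was not tested. Klf6 was lower too (-1.81 in males, -2.0 in females), Klf10 in females only by the test (-1.45, adjusted p = 0.000362, against -0.48 without a call in males, a difference that was not tested), and Klf9 was not called in males (-0.22). The signs of Klf9 and Klf10 in male endothelium turned with DESeq2 (0.33 and 0.018), so no direction is given for them there. Of the 6 endothelial KLF targets, 5 passed the filter in females, of which Edn1 (-4.40), Thbd (-3.00), Vcam1 (-0.97) and Nos3 (-0.90) were lower and Tek was higher.

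Klf9 and Klf10 in male proximal tubule were higher in nuclei, with introns counted, than in cells, without them. In male proximal tubule Klf9 stood at 34.1, 45.6 and 40.8 CPM in cells and at 103, 107 and 121 CPM in nuclei (log2 fold change 0.98, adjusted p = 9.27e-05), and Klf10 at 5.93, 11 and 14.3 CPM in cells and 32.8, 24.6 and 53.3 CPM in nuclei (1.39, adjusted p = 0.0055, lost without cell replicate 1 at 0.0514). In female proximal tubule Klf9 depended on the scale. Its CPM was higher in each nucleus library (222, 148 and 162 against 129, 142 and 110 CPM), whereas the fit gave a negative log2 fold change without a call (-0.30, adjusted p = 0.127), so no direction is given for it. Klf15 depended on the scale too. Its CPM in female proximal tubule was 47.7, 41.2 and 41.1 in cells and 47.2, 62.5 and 50.0 in nuclei, higher on average, whereas the fit that scales libraries by trimmed means gave a lower level in nuclei (-0.48, adjusted p = 0.0014), so no direction is given for it. In female thick ascending limb Klf15 was lower in nuclei on both scales, at 40.3, 33.4 and 53.7 CPM in cells and 28.5, 31.6 and 31.3 CPM in nuclei (-0.87). In males Klf15 CPM was higher in all nuclei (77.6, 89.1 and 100 against 72.6, 64.2 and 55.1 CPM) with a fitted log2 fold change of 0.01. Klf6 was lower in nuclei by the fit in male and female proximal tubule (-1.27 and -1.35) and thick ascending limb (-1.89 and -1.42). In male endothelium Klf15 had 0 counts in cells and 63 in nuclei, at least 3.03-fold higher with 3 counts assumed over the cell libraries, beside the tubule markers given above.

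**Figure D5:**
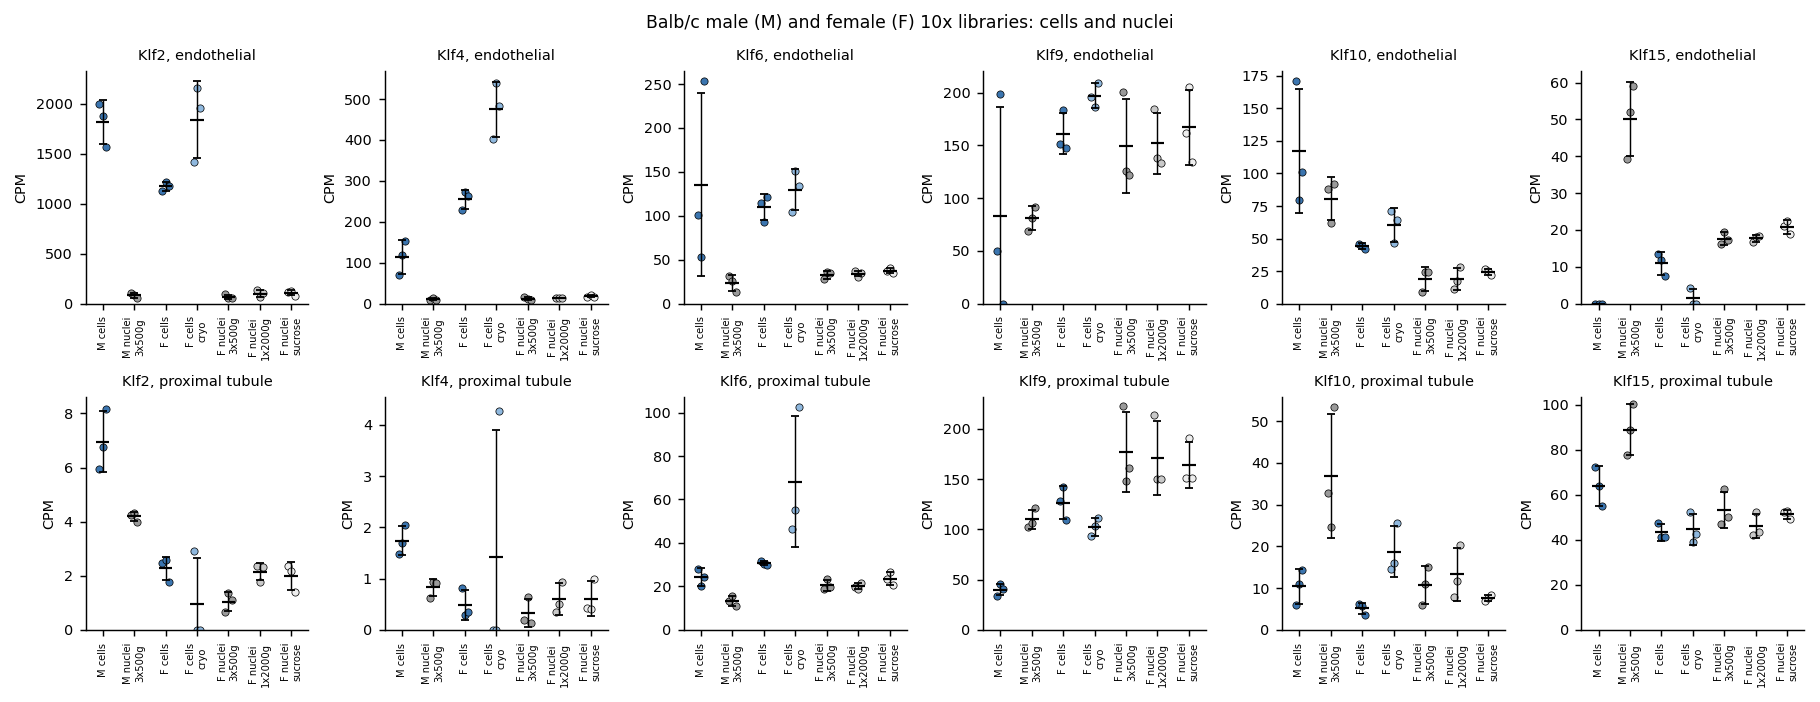
The 6 members in endothelial and proximal tubule gates of the Balb/c cell, cryopreserved cell and nucleus libraries, as CPM. Points are libraries, lines means and bars SD. Endothelial Klf2 and Klf4 lie at 52.5 to 134 CPM and 7.58 to 20.2 CPM in nuclei, below every cell library, and Klf9 and Klf15 in proximal tubule do not show such a drop.

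Between the nuclei protocols few members were called. Against the 3x500g protocol, 1 pair of 26 that passed the filter was called for 1x2000g (Klf2 in proximal tubule, log2 fold change 1.04, adjusted p = 0.0364, at 2.36, 1.78 and 2.32 CPM against 0.658, 1.35 and 1.11 CPM), while 17.9% of all pairs tested were called. It was lost with DESeq2 (0.0557), in the strict gate (0.0607) and without 5 of the 6 libraries, all but 3x500g replicate 2. The count over all members was 0 without 3x500g replicate 3 or 1x2000g replicate 1. Against 3x500g, sucrose nuclei were called in 2 of 25 pairs, while 28.2% of all pairs were called. These were endothelial Klf2 (113, 130 and 79.0 CPM against 91.3, 54.5 and 59.9 CPM, overlapping, 0.69, adjusted p = 0.0262) and Klf6 in thick ascending limb (0.53, adjusted p = 0.0235). The count was 7 without 3x500g replicate 1, 1 without sucrose replicate 1, and 0 without 3x500g replicate 2 or 3 or sucrose replicate 2.

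Fresh cold-dissociated cells of Balb/c males and C57 males gave 3 calls among 15 pairs that passed the filter of 54, while 6.84% of all pairs tested were called. Klf2 was higher in Balb/c lymphocytes (log2 fold change 1.02, adjusted p = 0.00522) and T cells (mean 628 in C57 against 2368 CPM in Balb/c, 1.77, adjusted p = 0.00356), each from 2 Balb/c libraries, and Klf9 was lower in Balb/c proximal tubule (mean 70 in C57 against 40.2 CPM in Balb/c, -0.88, adjusted p = 0.0306). Klf9 was lost without 5 of the 6 libraries, all but C57 replicate 3, T cell Klf2 without Balb/c replicate 2 (0.15), and lymphocyte Klf2 in the strict gate (0.114), without C57 replicate 2 (0.122) and without Balb/c replicate 1 (0.0834) or 2 (0.198). Where a Balb/c replicate was left out of the lymphocyte or T cell fit, the single Balb/c library left was assumed to vary like the C57 ones. The count was 1 without C57 replicate 2 or Balb/c replicate 1 and 0 without Balb/c replicate 2. Strain cannot be told apart from the AFAPIL.1DEL label of the C57 mice, age, depth and batch here. Median depth per library was 343 to 688 UMIs per barcode in Balb/c males and 1192 to 1525 in C57, with mitochondrial genes listed for C57 only.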

How the data were processed

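The members and gene lists were chosen with earlier results of these data known. The authors aligned 10x reads to mm10 with Cell Ranger 2.1.1, counting exonic reads for cells and intronic as well for nuclei, selected barcodes with EmptyDrops, kept genes found in at least 10 cells, and removed outlying barcodes with Scater. Bulk reads were trimmed with Trim Galore, aligned with STAR 2.6.1a and counted with featureCounts, and strandedness was not given in the sources used here. The deposited values are raw counts (UMIs per gene and barcode, reads per gene in bulk), with no normalization. No column of samples outside the series was found.

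Each barcode was placed in the gate with the most of its 10 markers detected, with at least 2 for the 7 non-tubule gates and 3 for the 5 tubule gates, and B, T and NK gates formed the lymphocyte gate. Doublets were not called. Counts were summed per gate and library, the endothelial, lymphocyte, B, T and 5 tubule gates were tested where at least 2 libraries of each group held at least 10 barcodes, genes were filtered with filterByExpr, and edgeR 4.0.16 (quasi-likelihood test, trimmed-mean scaling, Benjamini-Hochberg over all genes of a fit, threshold 0.05, R 4.3.3) gave log2 fold changes, with SE from the coefficient and its F statistic. The study's own bulk test, edgeR's exact test, was an alternative beside DESeq2 1.42.0, RLE size factors, no filter, a strict gate (at least 3 own markers and fewer than 3 of every other gate), leaving out each library, and, added after the data were seen, a replicate block and leaving out genes listed at 0 in a whole library. TPM used exon-union lengths. Named genes were the 6 members, the fixed lists and the 3 genes most like each member.

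Libraries of a group came from separate mice. Between libraries of a group, counts differed by more than sampling noise. Stored aliquots came from the fresh suspension with the same kidney number in the column names, so the C57 storage samples are paired. The values given come from the fit without that pairing unless it is named. The Balb/c female columns share no such number, and those cells were tested without pairing only. Over the sums of all barcodes, deviations of same-numbered fresh and stored libraries correlated at 0.033 to 0.082 for cold cryopreserved, -0.016 to 0.013 for warm cryopreserved, 0.235 to 0.247 for cold methanol-fixed and 0.089 to 0.195 for warm methanol-fixed cells. Barcode sequences shared between libraries came to at most 2.05% (v2) and 0.434% (v3) of a library. On simulated counts with known changes, log2 folds of 1 and 2 were recovered for 88.5% and 99% of genes in bulk, 58.9% and 98.9% in the endothelial gate, 33.7% and 93% in lymphocytes, and 75.8% and 100% in proximal tubule, and for the test of endothelium against proximal tubule 20% and 53.6%. Of the calls in these simulations, 21 of 204, 17 of 159, 5 of 113, 13 of 186 and 6 of 78 were false, in the same order. Intervals and floors cover counting error only. A result on the TGF-beta list is not reported here.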

Additional observations from a re-analysis of the deposited data

Results flagged for a closer look

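The effect of warm dissociation on fresh C57 cells differed between gates, by the test of the interaction itself, for 5 combinations of member and gates. Against proximal tubule, the endothelial log2 fold change was lower for Klf4 (difference -5.25, SE 0.57, adjusted p = 3.67e-08, edgeR), for Klf2 (-2.54, SE 0.27, adjusted p = 3.66e-08) and for Klf6 (-1.65, SE 0.32, adjusted p = 0.00198). Against T cells it was lower for Klf2 (-1.56, SE 0.26, adjusted p = 0.00884) and Klf6 (-2.41, SE 0.49, adjusted p = 0.0406). The Klf4 difference rests on 3 counts in the cold-dissociated proximal tubule libraries, so its size is a fitted value only. The Klf6 difference to T cells lost its call without cold replicate 1, 2 or 3 or warm replicate 3, while the other 4 kept theirs whichever library was left out, with adjusted p up to 0.0369. The parts of gate purity and depth in these differences were not tested.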

How the results depend on the processing

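Of 106 calls over all comparisons, 9 were lost with DESeq2, 8 in the strict gate, 2 without the filter, 2 with the block, 0 with RLE size factors, the exact test or zero-listed genes left out, and 33 on leaving out some library. Further called pairs gave no value, 3 with no adjusted p from DESeq2, and 22 in the strict gate, 5 on leaving out some library and 1 without zero-listed genes because they were no longer fitted. Of 227 pairs without a call, 39 gained one under some alternative. The number of called pairs moved from 0 to 1 for intact bulk with DESeq2, the exact test or no filter. Without the filter it moved from 7 to 12 for cold cryopreserved, 11 to 18 for warm cryopreserved, 3 to 5 for warm methanol-fixed, 8 to 13 for methanol-fixed warm against cold, 9 to 14 for male nuclei, 2 to 4 for sucrose nuclei and 0 to 1 for the cryopreservation interaction. The strict gate gave 4 for warm cryopreserved (11 otherwise), 3 for cold methanol-fixed (5), 0 for 1x2000g (1) and 3 for the interaction (0). DESeq2 gave 1 for cold methanol-fixed, 0 for 1x2000g and 1 for sucrose. For these moves the cause was not tested, beyond the wider set of genes tested without the filter. Leaving out a library gave 3 to 3 in bulk warm against cold (3), 0 to 0 in intact bulk, 13 to 18 for fresh warm against cold (16), 7 to 9 for cold cryopreserved, 7 to 11 for warm cryopreserved, 2 to 5 for Balb/c female cryopreserved, 1 to 7 for cold and 1 to 3 for warm methanol-fixed, 13 to 18 for cryopreserved warm against cold (15), 7 to 10 for methanol-fixed warm against cold, 8 to 11 for male and 14 to 19 for female nuclei (13), 0 to 1 for 1x2000g, 0 to 7 for sucrose, 0 to 4 for strain, 4 to 5 for the gate interaction and 0 to 1 for the cryopreservation interaction. Klf9 in thick ascending limb, sucrose against 3x500g nuclei, went from -0.06 to 0.35 (adjusted p = 0.0145) without 3x500g replicate 1 and to -0.26 without 3x500g replicate 2. The replicate block gave 10 calls for cold cryopreserved, 10 for warm cryopreserved, 7 for cold and 2 for warm methanol-fixed cells, and changed no call of the storage comparisons beyond those printed above. Warm and cold libraries share a kidney number only, with correlations of -0.172 to 0.176 over all barcodes and -0.238 to 0.245 within gates, and the block gave 16 calls fresh, 16 cryopreserved and 8 methanol-fixed. Few barcodes limited proximal tubule after cryopreservation of C57 cells and lymphocytes after warm dissociation and methanol fixation.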

Other observations

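Myeloid cells, which were gated but not among the gates tested, carried the same members at values that moved with the protocol. In fresh cold-dissociated C57 libraries myeloid Klf2 stood at 182, 211 and 204 CPM and in warm-dissociated ones at 1366, 822 and 1078 CPM. Myeloid Klf4 stood at 26.6, 34.8 and 56.1 CPM cold and 356, 198 and 219 CPM warm, and myeloid Klf6 at 122, 127 and 86.7 CPM cold and 871, 547 and 877 CPM warm. After cryopreservation of cold-dissociated cells Klf2 stood at 800, 948 and 1010 CPM, Klf4 at 459, 397 and 399 CPM and Klf6 at 343, 335 and 346 CPM. After cryopreservation of warm-dissociated cells Klf2 stood at 2175, 2537 and 2431 CPM, Klf4 at 671, 759 and 578 CPM and Klf6 at 1426, 1210 and 1265 CPM. For Klf2 the warm-dissociated fresh and cold-dissociated cryopreserved libraries overlapped and the other pairs of these 4 groups did not, and no test was run on them.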
